A study of Mus musculus with 4 samples.

Results

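Amacrine cells and retinal ganglion cells of the mouse were compared gene by gene and isoform by isoform, from the amacrine and ganglion columns of a long-read isoform table that has 1 column per retinal cell class. Genes were included when they had at least 100 counts in each of the 2 columns, and 2541 of the 16702 genes in the table did. They held 93.8% of the counts of the amacrine column and 96.3% of those of the ganglion column. Of the 2541, 2520 were Ensembl genes and 21 were loci that the authors named by position.

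Papain was used to dissociate the retinas, which came from male mice of the inbred strain C57BL6/J with a wild-type genotype. Of the 4 single-cell libraries, 2 had no enrichment (1 from postnatal day 40 and 1 without an age in the labels), 1 had CD73 enrichment (postnatal week 8) and 1 had CD90.2 enrichment (postnatal month 4). The protocol text describes magnetic removal of photoreceptors by CD73 and magnetic selection of neurons by CD90.2, whereas the design text names fluorescence-activated sorting. Single-cell cDNA made with 10x Genomics chemistry was read in full length on a nanopore instrument, and the authors' counts are given by cell class, taken here as pooled over cells. The columns name no library, so it is not known which libraries, ages or enrichments entered each class. Each class is therefore 1 pooled value without replicates, no difference has a test, and a difference was called by its size. All intervals are exact 95% intervals that cover counting error only.

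Amacrine cells are interneurons of the inner retina. Most release GABA or glycine, many add a neuropeptide, and most have no axon that leaves the retina. Ganglion cells are the output neurons of the retina: they receive input from bipolar and amacrine cells and send long axons through the optic nerve to the brain, which calls for neurofilaments, microtubules and the channels that carry action potentials. Both classes are neurons with conventional synapses, so a large part of their transcripts is shared.

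The amacrine column had 48248340 counts and the ganglion column 3509890, a ratio of 13.7. A gene with 100 counts was at 2.07 CPM, counts scaled to 1000000 per column, in amacrine cells and at 28.5 CPM in ganglion cells. The minimum therefore rested on the ganglion column: 7136 genes reached it in amacrine cells and 2555 in ganglion cells, 4595 in amacrine cells only, 14 in ganglion cells only and 9552 in neither. A gene that is low in ganglion cells is mostly absent from the comparison, whereas a gene that is low in amacrine cells can still enter it. In pooled columns, fewer cells of a subtype and less RNA per cell cannot be told apart.

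The class names were first checked against markers over whole lists, since a ganglion marker meets the minimum only where it is high in ganglion cells. Summed over the 20 ganglion markers in the table, 8 of which met the minimum, they were at 19450 CPM in ganglion cells and 1071 CPM in amacrine cells. Most of the ganglion sum was Sncg alone, at 15740 CPM against 333 CPM. The 22 amacrine markers in the table summed to 1295 CPM in amacrine cells and 84.05 CPM in ganglion cells, where 7 of them were at 0 and none reached 100 counts, so no amacrine marker is among the genes compared. Tfap2b, an amacrine transcription factor, had 273 CPM against 13.1 CPM. Gad1, which makes GABA, had 4224 counts (87.6 CPM) in amacrine cells and 2 counts (0.57 CPM) in ganglion cells. Slc6a9, the glycine transporter of glycinergic amacrine cells, had 692 counts against 0, at least 16.8-fold higher against the 3 counts taken as the limit for a count of 0 (its exact interval starts at a log2 ratio of 3.77). Ebf3 went against its list, with 21 counts in amacrine cells and 12 in ganglion cells (0.435 and 3.42 CPM). Ptf1a, which acts in amacrine development, was at 0 in both columns, and Isl1, listed for ganglion cells, was at 0 in the ganglion column.

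Markers of other cells were read beside these. The sum of rod markers was 715.3 CPM for amacrine and 0.57 CPM for ganglion cells, where 10 of 11 were at 0. Müller glia markers summed to 2190 CPM against 546.5 CPM, with 7 of 12 at 0 in ganglion cells. Bipolar markers were at 153 and 161 CPM. Of these, Gng13 gave 159 CPM in ganglion cells and 49.3 CPM in amacrine cells, Pcp2 1.14 and 97.5 CPM, and 8 of 12 were at 0 in ganglion cells. Horizontal cell markers, at 221 and 226 CPM, were mostly Tpm3 (148 and 180 CPM) and Calb1 (72.1 and 33.9 CPM), with Onecut1 and Onecut2 at 0 in ganglion cells. For other cells, cone markers at 61.7 and 0.28 CPM and microglial markers at 81.4 and 35.9 CPM. Astrocyte markers were at 0.54 and 0 CPM and vascular markers at 6.76 and 0 CPM. The part of this RNA in the differences below was not tested.

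**Figure D1:**
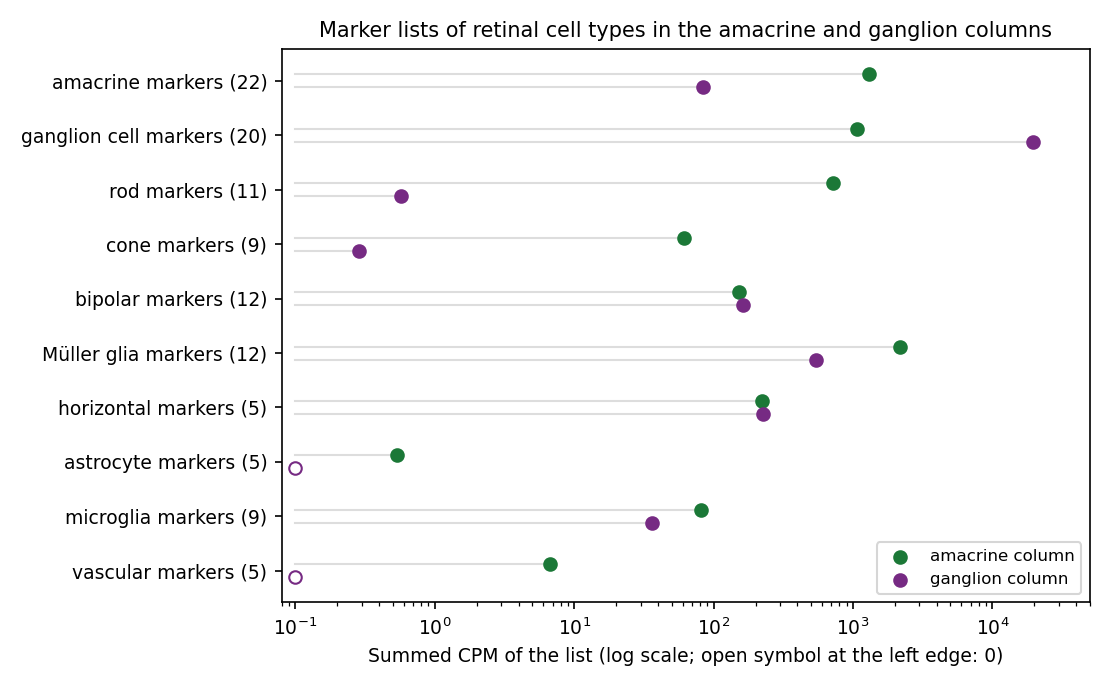
Summed CPM of each marker list in the amacrine and ganglion columns, on a log scale, with the number of listed genes in the table in parentheses and open symbols at the left edge for a sum of 0. Amacrine and ganglion markers were each higher in their own column, and rod markers were at 715.3 CPM in amacrine cells and 0.57 CPM in ganglion cells.

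Most genes were at a similar level in both classes. Of the 2541 genes, 153 were at least 2-fold higher in amacrine cells (6.02%), 289 were at least 2-fold higher in ganglion cells (11.4%) and 2099 (82.6%) were within 2-fold. The median log2 ratio of amacrine over ganglion CPM was 0.03, with quartiles of -0.47 and 0.41. The counting interval lay wholly past 2-fold for 100 of the 153 and 233 of the 289. Large differences were mostly toward ganglion cells: 85 genes (3.35%) were 4-fold or more higher there and 14 (0.551%) in amacrine cells, and 44 genes against 5 were past 8-fold. This balance depended on the minimum and on scaling. Of all genes past 2-fold, 34.6% were higher in amacrine cells. With trimmed-mean (TMM) scaling that share was 25%, with the median of ratios 20.6%, when both columns had to reach the same CPM 55.2%, and at equal depth 55.1%.

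**Figure D2:**
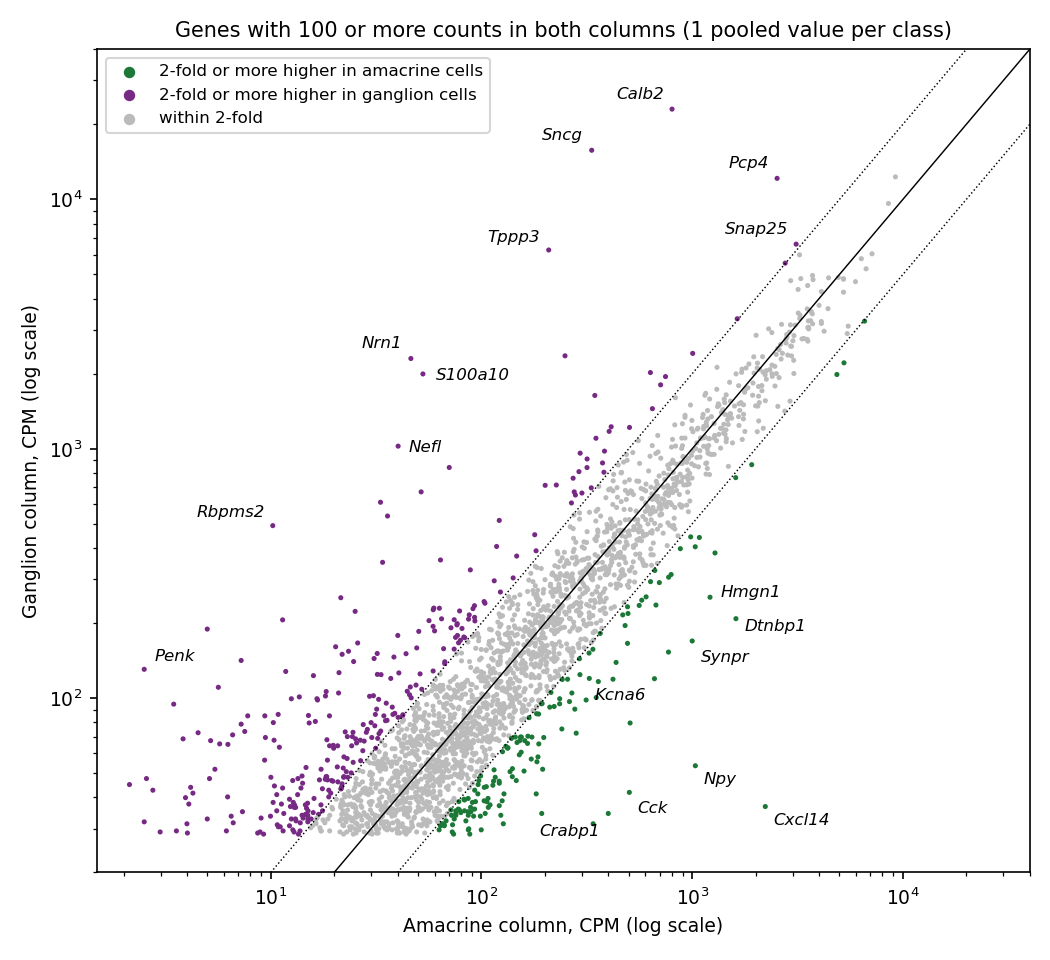
CPM of each of the 2541 genes in the amacrine column (x axis, log scale) and the ganglion column (y axis, log scale), with genes past 2-fold in colour. The cloud follows the diagonal, 289 genes lie on the ganglion side and 153 on the amacrine side.

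Of the 289 genes higher in ganglion cells, 208 (72.0%) had their highest CPM of all 6 class columns there. The others were highest in Müller glia (38), bipolar cells (21), rods (16) or cones (6). Of the 153 higher in amacrine cells, 88 (57.5%) were highest in amacrine cells and 65 in another class: 19 in Müller glia, 17 in bipolar cells, 17 in rods and 12 in cones. The other columns were not used to choose the genes. Some genes were most abundant in the whole class: in ganglion cells Calb2 held 2.3% of all counts, Sncg 1.57%, Calm2 1.23% and Pcp4 1.21%. In amacrine cells the leading gene was Calm2 with 0.922%, followed by Ubb with 0.854%. The 10 most abundant genes held 10.4% of ganglion and 6.67% of amacrine counts.

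The genes furthest toward ganglion cells were a peptide, a neuritin, RNA-binding and synuclein proteins and calcium-binding proteins. Penk, the precursor of enkephalins, had 458 counts (130 CPM) in ganglion cells and 121 counts (2.51 CPM) in amacrine cells, a log2 ratio of -5.70 (-6.0 to -5.4). Nrn1, neuritin, a protein of growing neurites, was at 2301 CPM against 46.2 CPM, 49.8-fold apart. Rbpms2, an RNA-binding protein used as a ganglion cell marker, was at 492 CPM against 10.2 CPM. Sncg, gamma-synuclein, also a ganglion marker, was at 15741 CPM in ganglion cells and 333 CPM in amacrine cells, a log2 ratio of -5.56 (-5.59 to -5.54). In the other 4 classes these genes were at most 59.0 CPM (Penk in Müller glia), apart from Sncg at 88.9 CPM in rods.

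Of the other genes at this end, S100a10 and Pmp22 were shared with Müller glia. S100a10, a calcium-binding family member that partners annexin A2, was at 1995 CPM in ganglion cells, 744 CPM in Müller glia and 52.7 CPM in amacrine cells. Pmp22, a myelin protein, was at 94.6 CPM against 3.46 CPM but at 112 CPM in Müller glia. Sptssb, a subunit of the enzyme that starts sphingolipid synthesis, was at 189 CPM against 5.00 CPM and at most 6.36 CPM in the other classes. Tppp3, a tubulin-binding protein, was at 6267 CPM against 208 CPM. Rabgap1l (45.0 against 2.13 CPM) and Prelid2 (47.6 against 2.57 CPM) were 21.1-fold and 18.5-fold apart on the fewest counts of this end, 158 and 167 in ganglion cells.

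Across the 44 genes past 8-fold on the ganglion side, the amacrine level was 1.92 to 12.1% of the ganglion level, and 6 were under 3%. The upper end of this range follows from the 8-fold cut that chose the genes. For Ppp1r21, Rabgap1l, Prelid2 and Rbpms2, most ganglion counts were not on an annotated coding transcript. The coding transcript of Rbpms2 held 45.9% of its 1726 ganglion counts and had a log2 ratio of -5.90 (-6.14 to -5.66). The log2 ratio of Ppp1r21 was -4.29, with 111 CPM in ganglion cells and 5.64 CPM in amacrine cells. Of its 388 ganglion counts, 95.6% were on a 5-exon transcript that the annotation types as a retained intron (ENSMUST00000185400.1, chr17:88578730-88588367). The 22-exon coding transcript was at 4.84 CPM in ganglion cells and 2.47 CPM in amacrine cells, a log2 ratio of -0.97 (-1.71 to -0.15). The coding transcript of Rabgap1l with counts had 5 of its 158 ganglion counts and a log2 ratio of -1.06 (-2.43 to 0.66). That of Prelid2 had 1 of 167 ganglion counts and a log2 ratio of 0.03 (-2.69 to 5.43), and unannotated isoforms held the others in both genes.

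The genes furthest toward amacrine cells were led by secreted peptides. Cxcl14, a chemokine, had 107253 counts (2223 CPM) in amacrine cells and 129 counts (36.8 CPM) in ganglion cells, a log2 ratio of 5.92 (5.67 to 6.18). Npy, neuropeptide Y, was at 1035 CPM against 53.6 CPM, 19.3-fold apart. Both were at most 71.4 CPM in the other 4 classes. Cck, cholecystokinin, was at 503 CPM against 41.9 CPM, but its highest level was the 1528 CPM of bipolar cells.

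Other genes highest in amacrine cells were Crabp1, which binds retinoic acid (400 against 34.5 CPM), Synpr, the vesicle protein synaptoporin (1000 against 170 CPM), Ptn, the growth factor pleiotrophin (772 against 153 CPM), and Ak1, adenylate kinase (282 against 72.4 CPM). Atp1b2, a sodium pump subunit, was at 127 against 31.3 CPM. Ptn was close to its amacrine level in Müller glia, at 759 CPM. Kcna6, a subunit of voltage-gated potassium channels, was at 662 CPM against 120 CPM, and 96.6% of amacrine and 99.3% of ganglion counts were on a 2-exon transcript that the annotation types as a target of nonsense-mediated decay (ENSMUST00000040751.5).

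A further 4 of the 15 genes furthest toward amacrine cells were higher in rods or Müller glia than in amacrine cells. Clu, clusterin, reached 193 CPM for amacrine, 34.5 CPM for ganglion cells and 6980 CPM for Müller glia. Hist1h2bc, a histone gene with near-identical copies, was at 339, 31.3 and, in rods, 2932 CPM. Hmgn1, a nucleosome-binding protein, was at 1215, 254 and, in rods, 4662 CPM. Rnaset2a, which has a near-identical copy, was at 182, 41.3 and, in Müller glia, 344 CPM. Counts of these copies may have been split or shared by the authors' assignment.

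Dtnbp1 and Hsd17b12 were higher in amacrine cells mostly through short transcripts typed as processed. Dtnbp1, dysbindin, was at 1613 CPM against 208 CPM, a log2 ratio of 2.95. A 4-exon processed transcript (ENSMUST00000222321.1, chr13:44922079-44947144) held 95.1% of its amacrine and 77.2% of its ganglion counts. Its coding transcript was at 78.3 CPM against 47.6 CPM, a log2 ratio of 0.72 (0.49 to 0.95). For Hsd17b12, a steroid and fatty acid enzyme, the log2 ratio was 2.67 for the gene and 0.66 for the coding transcript, and the processed transcript (ENSMUST00000146580.1) held 84.0% of amacrine and 35.1% of ganglion counts. With only coding transcripts neither gene was past 2-fold.

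The gene lists that follow hold only genes with 100 counts in both columns, so members low in ganglion cells are missing from their counts and medians, and no direction of a whole list can be read from them. Over all genes compared, 11.4% were higher in ganglion and 6.02% in amacrine cells. Of 17 neurofilament and tubulin genes in the table, 12 met the minimum. Of these, 11 were higher in ganglion cells, 0 in amacrine cells and 1 was within 2-fold, with a median log2 ratio of -1.68 against 0.03 over all genes. Nefl, the light neurofilament chain, was at 1025 CPM against 40.2 CPM, and Nefm, the medium chain, at 65.5 CPM against 5.72 CPM. Nefh, the heavy chain, was below the minimum with 11 ganglion counts, at 3.13 CPM against 3.59 CPM in amacrine cells. Ina, the neurofilament partner alpha-internexin, was at 120 CPM against 37.1 CPM. Tubb3, a neuronal beta-tubulin, was at 358 CPM against 63.9 CPM, and Tuba1a, the main alpha-tubulin of neurons, at 2412 CPM against 1006 CPM. Tubb2b had a log2 ratio of -2.98 and Tubb4a, the gene within 2-fold, of -0.46. Tubulin paralogs are near-identical over much of their length, so their separate values are uncertain.

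Microtubule-binding proteins and motors were read next. Of 26 microtubule-associated and growth-cone genes in the table, 15 were below the minimum in ganglion cells. Of the 11 compared, 4 were higher in ganglion cells and 7 within 2-fold, with a median of -0.64. Among those left out, Mapt, the protein tau, was at 124 CPM in amacrine cells and 3.99 CPM in ganglion cells. The 4 were Tppp3, Map1a (35.0 against 7.34 CPM), the growth-cone protein Gap43 (606 against 267 CPM) and Stmn3, which binds free tubulin (5550 against 2763 CPM, log2 -1.01). All 7 axonal transport motor genes that met the minimum, of 23 in the table, were within 2-fold, with a median of -0.36.

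**Figure D3:**
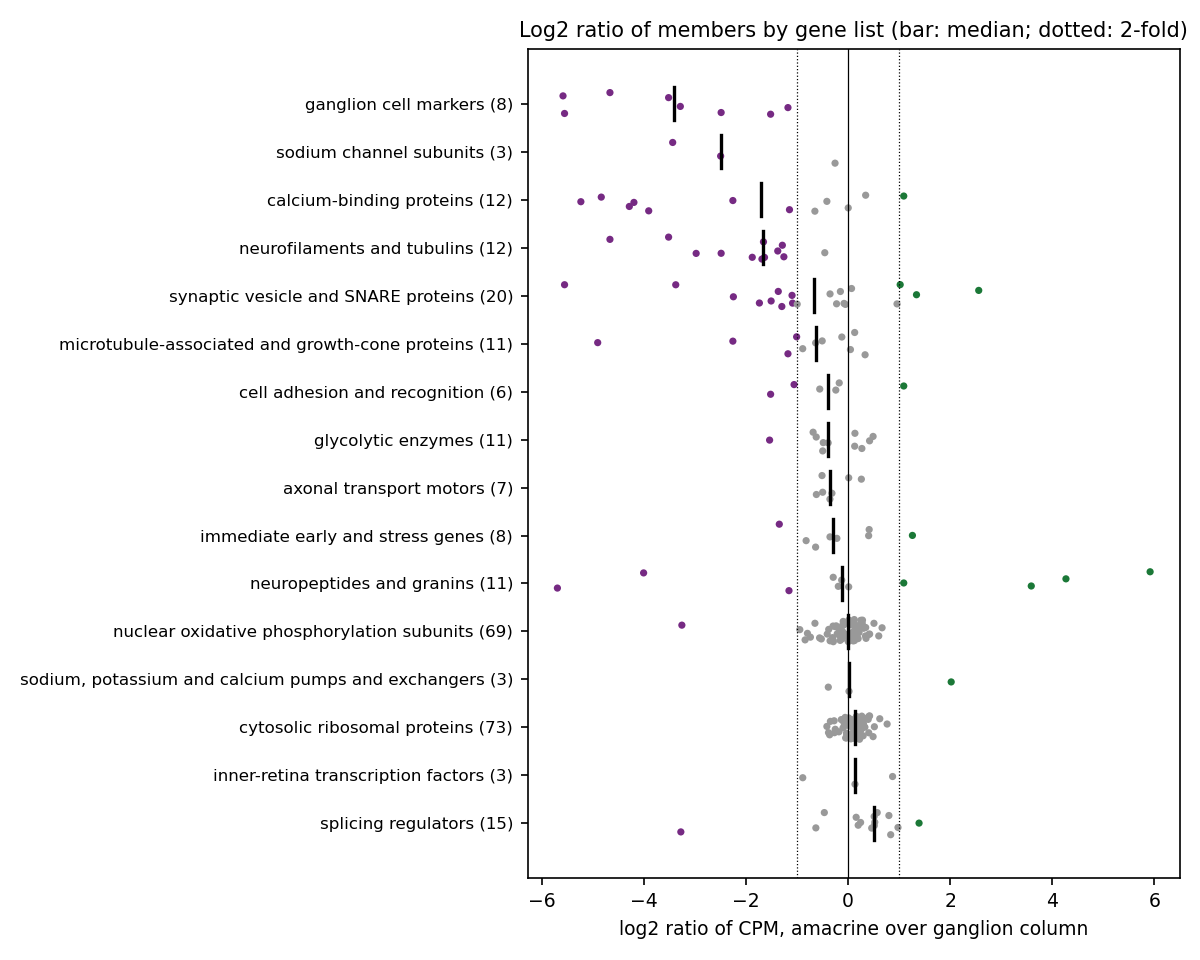
Log2 ratio of amacrine over ganglion CPM for the genes of each list that met the minimum, 1 point per gene, with the list's median as a bar and dotted lines at 2-fold. Of the neurofilament and tubulin genes plotted, 11 of 12 lie past 2-fold toward ganglion cells, and oxidative phosphorylation and ribosomal genes lie around 0.

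Few channel genes met the minimum in both classes. Among sodium channel genes, Fgf12, an intracellular protein that binds the channel, was at 140 CPM in ganglion cells and 24.7 CPM in amacrine cells. Fgf13, of the same family, was within 2-fold as a gene (123 CPM in amacrine, 147 CPM in ganglion cells) but not in its isoforms, described below. Kcnip4, which binds potassium channels of the Kv4 type, was at 166 CPM against 25.8 CPM, opposite to Kcna6. Cacnb3, a calcium channel beta subunit, was at 102 CPM against 18.2 CPM, whereas Cacng3 was within 2-fold (log2 0.87). The nicotinic receptor subunit Chrna6 was at 73.5 CPM against 7.52 CPM.

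Synaptic genes went both ways. Of 47 synaptic vesicle and SNARE genes in the table, 27 were below the minimum in ganglion cells. Of the 20 compared, 9 were higher in ganglion cells, 3 in amacrine cells and 8 were within 2-fold, with a median of -0.68. Beside Sncg, the ganglion side held Vamp1, a vesicle SNARE of fast-firing neurons (65.2 against 6.26 CPM), and Snap25, a SNARE of the plasma membrane (6614 against 3114 CPM). Rab3b (log2 -1.74), Syngr1 (-1.51), Stx1a (-1.37), Cplx1 (-1.30) and Syt4 (-1.10) were also on this side. The amacrine side held Synpr, Napa, which helps to take SNARE complexes apart (773 against 305 CPM), and Sncb, beta-synuclein (6580 against 3250 CPM, log2 1.02). Sncb was within 2-fold (log2 0.90 and 0.83) under the 2 other scalings. Among the genes left out, named after their values were seen, Cplx3, a complexin, was at 49.5 CPM in amacrine cells and at 0 in ganglion cells, and Stx3, a syntaxin, at 19.5 CPM against 0.57 CPM.

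Of 19 calcium-binding protein genes in the table, 7 were below the minimum in ganglion cells. Of the 12 compared, 7 were higher in ganglion cells, 1 in amacrine cells and 4 within 2-fold, with a median of -1.71. Among those left out, Cabp1, with 97 ganglion counts, was at 572 CPM in amacrine cells and 27.6 CPM in ganglion cells, and Necab1 at 26.9 against 1.43 CPM. Calb2, calretinin, was at 23012 CPM against 802 CPM, a log2 ratio of -4.84 (-4.86 to -4.82), and was the most abundant gene of ganglion cells. Pcp4, which binds calmodulin, was at 12143 CPM against 2529 CPM, Pvalb, parvalbumin, at 537 CPM against 35.8 CPM, and Hpcal1, a neuronal calcium sensor, at 610 CPM against 33.2 CPM. Necab2 was at 142 CPM against 7.23 CPM, and Vsnl1, a visinin-like sensor, at 664 CPM against 300 CPM. Calb1, calbindin, was the gene higher in amacrine cells, at 72.1 CPM against 33.9 CPM, and it was within 2-fold under both other scalings.

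Neuropeptides went both ways. Among 24 genes in the table, 11 met the minimum, and of these 4 were higher in amacrine cells and 3 in ganglion cells, with 4 within 2-fold. Cxcl14, Npy, Cck and Tac1, the substance P precursor (493 against 232 CPM), were the amacrine ones, and Tac1 was within 2-fold under both other scalings. Penk, Gal, the precursor of galanin (72.7 against 4.52 CPM), and Cartpt (1448 against 647 CPM) were the ganglion ones.

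Most transmitter genes were below the minimum in ganglion cells. Of 11 genes for GABA and glycine synthesis and transport in the table, 1 met it, the amino acid transporter Slc38a1, with a log2 ratio of 0.31. Summed over all 11, they were at 203.5 CPM in amacrine cells and 43.31 CPM in ganglion cells. Slc38a1, being past the minimum, held at least 28.5 CPM of each sum, and so most of the ganglion one. Gabbr1, a GABA-B receptor subunit, was at 77.5 CPM in ganglion cells and 40.4 CPM in amacrine cells, and Gabra2, a GABA-A subunit, had a log2 ratio of -0.65. None of the 23 glutamate release and receptor genes in the table met the minimum in both classes.

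Among regulators, 35 inner-retina transcription factors were in the table, 30 of them below the minimum in ganglion cells. The 3 that met the minimum in both classes were within 2-fold, among them Six3 with a log2 ratio of 0.87. Under both other scalings 1 of the 3 was higher in ganglion cells. Among 48 splicing regulators in the table, 15 met the minimum, and 13 of these were within 2-fold, with a median of 0.51. Elavl2, a neuronal RNA-binding protein, was at 41.6 CPM in ganglion cells and 4.27 CPM in amacrine cells, and Rbfox1, which binds beside neuronal exons, was at 121 CPM in amacrine cells and 46.4 CPM in ganglion cells. Among 41 adhesion genes in the table, 6 met the minimum. Thy1 and Nptn were higher in ganglion cells and Igsf8 in amacrine cells, the last within 2-fold under both other scalings. Thy1, which encodes the CD90 protein used for selection in 1 of the libraries, was at 910 CPM in ganglion cells and 317 CPM in amacrine cells, and at most 3.75 CPM in the other classes.

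All 73 ribosomal protein genes were within 2-fold, with a median of 0.13 (-0.06 by the median of ratios), and so were 68 of 69 nuclear genes of oxidative phosphorylation, with a median of 0.0047 (-0.11 and -0.18 under the other scalings). The gene outside was Cox7a1, a subunit of cytochrome oxidase known from muscle, at 51.9 CPM in ganglion cells and 5.43 CPM in amacrine cells. Of 11 glycolytic genes, Pkm, pyruvate kinase, was higher in ganglion cells (1174 against 404 CPM) and 10 were within 2-fold. Of 8 immediate early and stress genes, the chaperone Hspa8 was higher in ganglion cells (978 against 384 CPM) and the stress factor Ddit3 in amacrine cells (698 against 291 CPM). The 3 Müller glia markers that met the minimum, Glul (195 against 51.9 CPM), Clu and Dbi (984 against 443 CPM), were all higher in amacrine cells. Dbi was within 2-fold (log2 0.96) by the median of ratios. Genes with their highest CPM in Müller glia lay on both sides, 19 of the 153 amacrine and 38 of the 289 ganglion calls.

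Isoform use was compared in the 1572 genes with at least 2 isoforms. An isoform's share is its percent of the counts of its gene, so it does not depend on how the columns are scaled. The largest difference in share of a gene had a median of 6.53 percentage points, and 656 genes differed by less than 5 points. The most abundant isoform differed between the classes in 136 genes (8.65%). In 65 (4.13%) the share of 1 of these isoforms also differed by at least 25 points, and in 18 (1.15%) by at least 50 points, which are called switched here. Of the 5089 single isoforms, 204 (4.01%) differed by at least 25 points and 29 (0.57%) by at least 50.

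Genes with another leading isoform were also read for their level. Of the 65 genes, 43 (66.2%) were within 2-fold as genes, 16 were higher in ganglion cells and 6 in amacrine cells, beside 82.6% within 2-fold over all genes compared. Of the 18, 7 (38.9%) were within 2-fold, 8 higher in ganglion cells and 3 in amacrine cells. Fewer than 200 ganglion counts stood behind 9 of the 18. In 6 of the 18 both isoforms were annotated as protein coding, in 6 the amacrine isoform and in 5 the ganglion isoform was outside the annotation.

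**Figure D4:**
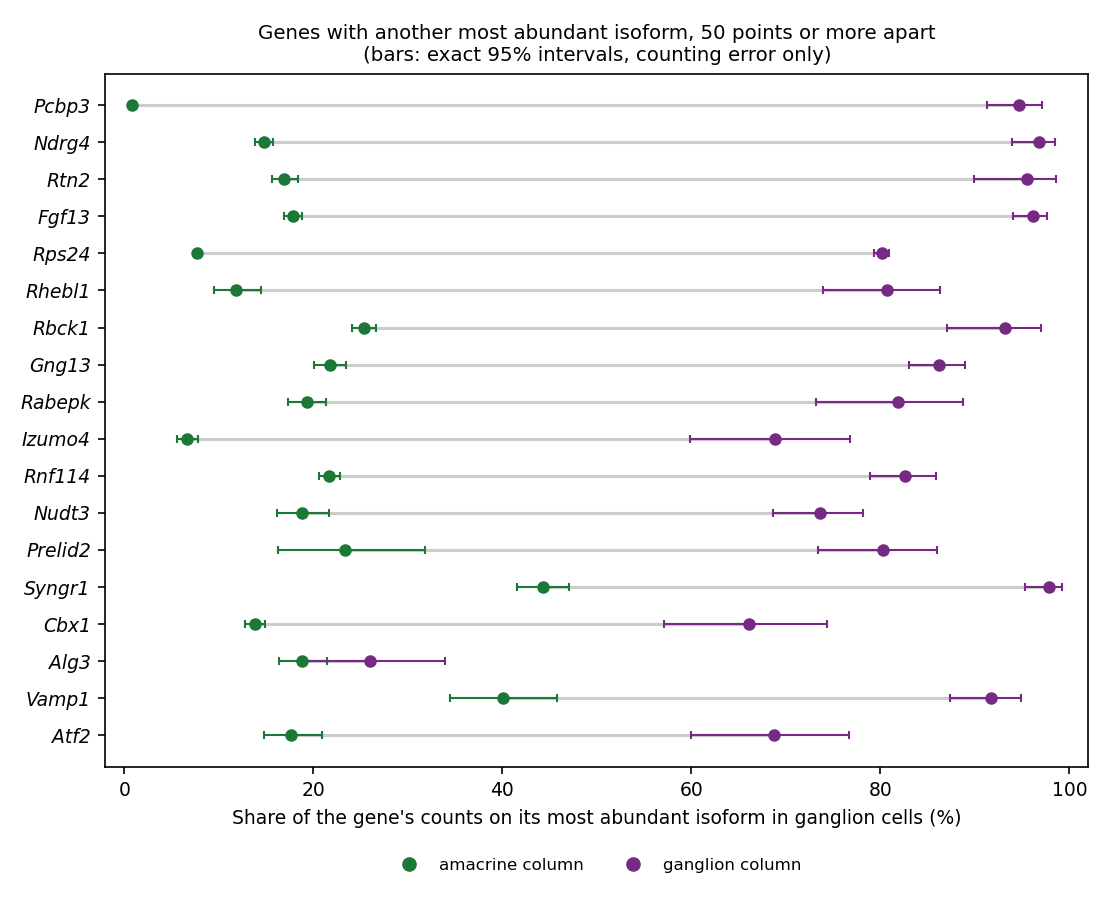
Share of each gene's counts on the isoform that is most abundant in ganglion cells, in amacrine and ganglion cells, for the 18 genes with another most abundant isoform 50 points or more apart, with exact 95% intervals for counting error only. For Alg3 the 50 points were reached by the amacrine isoform (54.5% against 2.74%), so its plotted shares of 18.8% and 26.0% lie close together.

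The exons that carry the largest or best known differences are printed so that the alternative products can be seen. All sequences are GENCODE M21 transcript sequence of build GRCm38, 5′ to 3′, and all lie on the plus strand. Snap25 and Pkm each have a pair of exons of which a transcript takes 1, and capitals mark the positions at which the pair differs. The Snap25 exons, at chr2:136769743-136769860 and chr2:136770057-136770174, are each 118 nt and differ at 31 positions. The Pkm exons, at chr9:59675029-59675195 and chr9:59675568-59675734, are each 167 nt and differ at 64 positions.
Snap25 upstream exon: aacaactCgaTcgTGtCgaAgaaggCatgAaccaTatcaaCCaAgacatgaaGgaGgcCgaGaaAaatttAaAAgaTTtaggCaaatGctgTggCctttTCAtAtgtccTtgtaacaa
Snap25 downstream exon: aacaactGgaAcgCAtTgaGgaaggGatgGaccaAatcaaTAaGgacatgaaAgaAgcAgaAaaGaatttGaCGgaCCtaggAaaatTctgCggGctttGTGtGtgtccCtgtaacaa
Pkm upstream exon: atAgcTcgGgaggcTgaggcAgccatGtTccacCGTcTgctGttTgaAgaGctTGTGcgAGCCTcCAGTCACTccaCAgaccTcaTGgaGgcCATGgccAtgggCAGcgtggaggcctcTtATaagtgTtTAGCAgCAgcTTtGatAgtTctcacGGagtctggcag
Pkm downstream exon: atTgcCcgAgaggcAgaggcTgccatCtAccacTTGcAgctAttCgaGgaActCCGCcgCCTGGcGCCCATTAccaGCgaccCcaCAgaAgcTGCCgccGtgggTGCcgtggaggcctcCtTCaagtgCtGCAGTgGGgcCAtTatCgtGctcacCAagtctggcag

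Pkm differed in both level and exon. The upstream exon, which gives the M1 form of the enzyme found in muscle and brain, was in 4115 of 4122 ganglion counts (99.8%, 99.7 to 99.9%) and in 61.4% of amacrine counts (60.8 to 62.1%). The downstream exon, which gives the M2 form found in dividing cells and photoreceptors, had the other 0.17% and 38.6%. Bipolar cells, cones, Müller glia and rods had 6.38 to 9.40% of the upstream exon. Amacrine cells lay between ganglion cells and the other 4 classes, in a column whose rod markers summed to 715.3 CPM.

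Snap25 differed less than Pkm in its exon pair. The downstream exon, the adult form, was in 92.9% of ganglion counts (92.5 to 93.2%) and 70.8% of amacrine counts (70.5 to 71.0%). Bipolar cells had it in 86.5%, Müller glia in 92.3%, rods in 96.8% and cones in 97.4%, so amacrine cells had the lowest share of the 6 columns. The gene was named here after its values were seen, since its difference of 22.1 points is below 25.

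The next set holds short elements that are added to or left out of an otherwise shared transcript. In Ndrg4 (chr8:95712325-95712363, 39 nt) and Rps24 (chr14:24494052-24494069, 18 nt) capitals mark an exon, printed with 15 bases of the exon before it and, for Ndrg4, of the exon after it. In Nptn (chr9:58650497-58650508) capitals mark 12 bases added at the 5′ end of an exon. In Vamp1 capitals mark the end of the coding sequence, with its stop codon, which lies at chr6:125219638-125219651 in ENSMUST00000100942.8 and at chr6:125220050-125220066 in ENSMUST00000032487.13.
Ndrg4 exon: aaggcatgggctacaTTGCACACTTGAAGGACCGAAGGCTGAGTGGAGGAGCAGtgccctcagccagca
Rps24 exon: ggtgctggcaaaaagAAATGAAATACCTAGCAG
Nptn extension: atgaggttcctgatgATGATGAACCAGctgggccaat
Vamp1 coding end, amacrine: tggtagtgattgtaaGTAAGTATCGCTGA
Vamp1 coding end, ganglion: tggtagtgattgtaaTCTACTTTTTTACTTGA

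Ndrg4, a neuronal protein of the N-myc downstream-regulated family, took the 39-nt exon in 268 of 277 ganglion counts (96.8%, 93.9 to 98.5%) and 835 of 5658 amacrine counts (14.8%, 13.8 to 15.7%). The exon keeps the reading frame and lies in the coding sequence. As a gene Ndrg4 was within 2-fold, but the form with the exon (ENSMUST00000073139.13) was at 76.4 CPM in ganglion cells and 17.3 CPM in amacrine cells. The form without it (ENSMUST00000080666.7) was at 1.43 CPM and 91.1 CPM. Inclusion was 2.06% in bipolar cells and 41.0% in rods.

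Rps24, a protein of the small ribosomal subunit, was the switched gene with the most counts. Its 18-nt exon, which adds 3 coding bases before a stop codon, was in 8641 of 10785 ganglion counts (80.1%, 79.4 to 80.9%) and 13151 of 171878 amacrine counts (7.65%, 7.53 to 7.78%). The gene as a whole was at 3073 and 3562 CPM, a log2 ratio of 0.21. The share was 90.8% in rods, 91.1% in cones, 42.4% in bipolar cells and 20.8% in Müller glia, so amacrine cells had the lowest share and ganglion cells were nearer to photoreceptors.

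Nptn, a cell adhesion protein of synapses, had the 12-nt extension in 0 of 176 ganglion counts (0 to 2.07%) and in 517 of 1162 amacrine counts (44.5%, 41.6 to 47.4%). It was in 98.6% of Müller glia, 71.4% of rod, 53.7% of cone and 32.8% of bipolar counts, so it was least used in ganglion cells. The same isoform was most abundant in both classes, so Nptn is not among the 18.

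**Figure D5:**
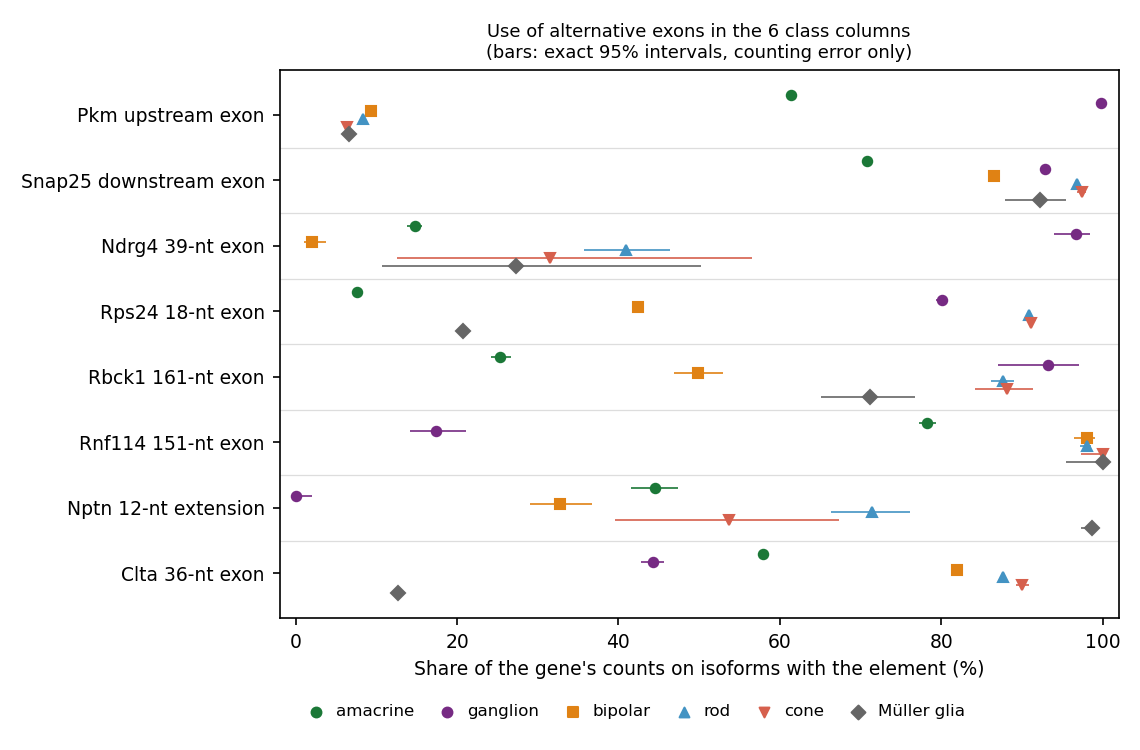
Share of a gene's counts on isoforms with the named exon or extension in each of the 6 class columns, with exact 95% intervals for counting error only. Ganglion and amacrine cells lie apart at Ndrg4 (96.8% and 14.8%), Rps24 (80.1% and 7.65%), Rnf114 (17.4% and 78.3%) and Pkm (99.8% and 61.4%).

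Synaptic vesicle genes were among the switches that change the end of the protein. Vamp1 had 210 of 229 ganglion counts (91.7%, 87.3 to 94.9%) on the transcript with the downstream coding end, and 40.1% of amacrine counts (34.5 to 45.8%). The transcript with the other end, which keeps an intron, had 54.0% of amacrine and 8.30% of ganglion counts. At the level of transcripts, the former was at 59.8 CPM against 2.51 CPM and the latter at 5.41 CPM against 3.38 CPM, so the difference of the gene was carried by 1 transcript. Syngr1, a vesicle membrane protein, ended in its downstream last exon (ENSMUST00000009727.11, chr15:80091344-80116265) in 97.8% of ganglion and 44.3% of amacrine counts. The upstream last exon (ENSMUST00000009728.12, chr15:80091344-80113441) had 2.18% and 55.7%. The form with the downstream end was at 76.6 CPM against 12.2 CPM, and the other at 1.71 CPM against 15.3 CPM.

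First exons made the largest group among the 18. Pcbp3, an RNA-binding protein of the poly(C)-binding family, had the largest difference of all. Its 16-exon transcript (ENSMUST00000001148.10, chr10:76761857-76961887) had 250 of 264 ganglion counts (94.7%, 91.3 to 97.1%) and 96 of 11612 amacrine counts (0.827%, 0.67 to 1.01%). Amacrine counts lay on several shorter transcripts that start further downstream, the first of them an unannotated 13-exon transcript (chr10:76761857-76822797) with 43.4% against 1.52%. The gene was 3.20-fold higher in amacrine cells, whereas its ganglion transcript was at 71.2 CPM in ganglion cells and 1.99 CPM in amacrine cells.

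Fgf13, which binds voltage-gated sodium channels through a core behind a variable first exon, was nearly level as a gene, with a log2 ratio of -0.26. The 5-exon transcript with the downstream start (ENSMUST00000033473.11, chrX:59062145-59134436) had 495 of 515 ganglion counts (96.1%, 94.1 to 97.6%) and 17.8% of amacrine counts. An unannotated 7-exon transcript with a far upstream start (chrX:59062145-59568071) had 75.6% of amacrine and 1.55% of ganglion counts. In CPM the former was at 141 in ganglion and 21.9 in amacrine cells, and the latter at 2.28 and 92.9.

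Rtn2, a reticulon of the endoplasmic reticulum, had 95.5% of ganglion counts on the 10-exon transcript with the upstream start (ENSMUST00000032559.16, chr7:19282635-19296160) and 83.1% of amacrine counts on the 7-exon one (ENSMUST00000108468.4, chr7:19291069-19296160). Gng13, a G protein subunit that is highest in bipolar cells, had 86.2% of ganglion counts on ENSMUST00000115108.3 (chr17:25717528-25719087) and 78.3% of amacrine counts on ENSMUST00000172002.7 (chr17:25717171-25719087). The Gng13 level was 11346 CPM in bipolar cells against 159 and 49.3 CPM in ganglion and amacrine cells. Pcp2, a bipolar marker, was at 23350 CPM in bipolar cells, 1.14 CPM in ganglion cells and 97.5 CPM in amacrine cells. The part of bipolar RNA in the amacrine Gng13 counts, and so in this switch, was not tested. Rhebl1, a small GTPase, differed in the first exon as well, with 80.7% of ganglion and 11.8% of amacrine counts on a processed transcript.

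Ubiquitin and chromatin genes were among the rest. Rnf114, a ubiquitin ligase, lacked a 151-nt exon in 82.6% of ganglion and 21.7% of amacrine counts, and the shorter transcript (ENSMUST00000127939.1) is typed as a target of nonsense-mediated decay. The other 4 classes had the exon in at least 98.0% of counts, so it was least used in ganglion cells. Rbck1, part of a ubiquitin ligase complex, had a 161-nt exon in 93.2% of ganglion and 25.4% of amacrine counts. Cbx1, a heterochromatin protein, had 66.1% of ganglion and 13.8% of amacrine counts on a transcript typed for decay.

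The ganglion isoform had 81.9% against 19.3% in Rabepk, 68.8% against 6.63% in Izumo4, 73.6% against 18.8% in Nudt3, 80.2% against 23.4% in Prelid2 and 68.8% against 17.7% in Atf2, on 105 to 345 ganglion counts. Just below 50 points were Hsd17b12, at 48.8 points, and Abtb1, at 48.0 points.

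By kind of event, 17 of the 18 genes had models for both isoforms. A different first exon was found in 8, a cassette exon in 6 and a different last exon in 4, and a gene could have several. Of the 63 modelled genes among the 65, 32 (50.8%) had a cassette exon, 19 (30.2%) another first exon and 12 (19.0%) another last exon. Between the 2 most abundant isoforms of each of 1541 genes these were 38.7%, 28.7% and 11.9%.

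A list of 100 genes with known neuronal splice variants was read in the same way. Of its members 23 met the minimum and 21 had at least 2 isoforms. In 6 of these the largest difference in share was at least 25 points, beside 134 of all 1572 genes (8.52%). They were Ndrg4 (82.0 points), Nptn (54.6), Vamp1 (51.6), Tpm3 (43.1), Eml2 (40.7) and Pkm (38.9). Tpm3, a tropomyosin, had 70.6% of ganglion and 27.5% of amacrine counts on ENSMUST00000119158.7 (chr3:90079665-90098783). Eml2, a microtubule-binding protein, had 94.1% and 53.4% on its 22-exon transcript (ENSMUST00000117338.7, chr7:19176421-19206482). In 4 genes of the list the difference was under 5 points. Clta, the clathrin light chain, was named after its values were seen: its 36-nt exon was in 57.9% of amacrine and 44.3% of ganglion counts, and its 54-nt exon in 90.4% and 95.8%.

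The other classes were used to place the 65 genes with at least 25 points, as they had no part in the choice. In rods the most abundant isoform was that of amacrine cells in 40 of 65 genes and that of ganglion cells in 14. In bipolar cells it was 43 and 15 of 64, in Müller glia 38 and 11 of 62, and in cones 30 and 15 of 55, counting genes with at least 20 counts. In each of the 4 classes the amacrine isoform led in more genes than the ganglion one, a difference that has no test here. Rod markers summed to 715.3 CPM in the amacrine column, and the part of rod RNA in this count was not tested.

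Isoforms were more mixed in amacrine cells. The chance that 2 counts of a gene came from different isoforms had a median of 26.9% over genes in amacrine cells and 22.8% in ganglion cells. It was at least 10 points higher in amacrine cells in 359 genes and in ganglion cells in 159. Of the 5089 isoforms, 885 had a count in amacrine cells and 0 in ganglion cells, and 4 the reverse, at a depth 13.7 times apart. Annotated coding transcripts held 92.83% of amacrine and 93.61% of ganglion counts of these genes, and unannotated isoforms 4.349% and 3.922%. Of 1472 genes with a model for every isoform, the mean isoform was at least 50 nt longer in amacrine cells in 76 and in ganglion cells in 66.

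The minimum itself left out genes that are known for each class. Genes with 100 or 101 ganglion counts, just inside it, had log2 ratios from -2.84 (Dleu7) to 1.63 (Gpatch11), and those with 98 or 99, just outside, from -1.34 (Slc35a2) to 2.22 (Eny2).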

How the data were processed

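The authors deposited whole-number counts per isoform in 6 cell-class columns, with FLAIR transcript models per the file contents. The aligner, cell typing, doublet handling and any collapsing of reads to molecules are not given in the sources used here, and 0 columns were left unused. The build is mm10 per the submitters' processing notes, and 94.4% of 122601 distinct introns of the models were in GENCODE M21 (GRCm38). All 14789 models with an M21 identifier had the same introns there.

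Isoform counts were summed per gene, scaled to 1000000 per column (CPM) and compared as log2 ratios without a pseudocount, with exact conditional 95% intervals. Shares have Clopper-Pearson intervals. Depth was 48248340 counts for amacrine and 3509890 for ganglion cells, and a count of 0 allows 3 counts (0.0622 and 0.855 CPM). Calls are rules of size: 2-fold, or 50 or 25 points of share. With 1 pooled value per class the planned comparisons have no test. All 2520 Ensembl genes compared had a symbol.

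Named genes were the 15 with the largest log2 ratio in each direction, the members of each list with the most counts or largest ratios, the 20 largest switches and every gene past 25 points of the splice-variant list. The genes compared and the lists were chosen with earlier results of these data known. Alternatives were edgeR's trimmed mean of M-values, DESeq2's median of ratios, other minimums and limits, equal depth (20 draws), annotated or spliced isoforms only, the same introns summed and, added after seeing the data, protein-coding isoforms only and an equal level minimum. The scripts were tested on simulated data. Results for some named genes are not reported here. Tools were Python 3.11.15, pandas 2.3.3, numpy 2.4.6, scipy 1.17.1, matplotlib 3.10.9, R 4.3.3, edgeR 4.0.16 and DESeq2 1.42.0.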

Additional observations from a re-analysis of the deposited data

How the results depend on the processing

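The scalings could not turn a gene past 2-fold, as they moved all log2 ratios by only -0.114 and -0.189. With protein-coding isoforms only, genes with too few coding counts were not scored. Among these was Prelid2, at a log2 ratio of -4.21 as a gene and 0.03 (-2.69 to 5.43) on 1 coding ganglion count. Rabgap1l and Ppp1r21, with 5 and 17 coding ganglion counts, were not scored either. Where scored, no named gene past 2-fold changed its direction under an alternative. Ratios and medians near 0 did: over all genes the median of 0.033 became -0.0813 (trimmed mean of M-values) and -0.157 (median of ratios), the medians of oxidative phosphorylation subunits and of pumps and exchangers turned under both scalings, and those of ribosomal proteins and transcription factors under the median of ratios only. At equal depth more genes were higher in amacrine (157.1) than in ganglion cells (128.2), the reverse of the order at full depth. Genes higher in amacrine cells numbered 153, and 98 with scaling by the median of ratios, 14 at 4-fold, and by minimum 2002 for 1 count, 481 for 20 counts and 32 for 500 counts. Genes higher in ganglion cells numbered 289, and 837 at 20 counts, 1483 at 1 count, 94 at 500 counts, 85 at 4-fold, 128.2 at equal depth (mean of 20 draws) and 124 with an equal level minimum, which was chosen after seeing the data. Fewer genes are tested at equal depth (2276.0 on average) and at an equal level (2281). The scalings moved all log2 ratios by -0.114 (trimmed mean of M-values) and -0.189 (median of ratios). Both moves are toward ganglion cells, so no ganglion call could be lost and all 289 were kept. Of the 153 amacrine calls, 114 and 98 were kept. With protein-coding isoforms only, also chosen after seeing the data, 118 of 153 and 234 of 289 were kept. Of the 153 and 289, 130 and 238 had enough protein-coding counts to be scored. With these isoforms the log2 ratio of Fgf13 went from -0.26 to -2.69, of Tpm3 from -0.28 to -1.40 and of Lsamp from -0.18 to -1.26.

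Switched genes numbered 18, and 261 with a minimum of 20 counts, 3 with 500, 65 at 25 points and 10 with annotated isoforms only. All 18 were kept with the same introns summed and 17 with isoforms of at least 2 exons, and 9 were found in every draw at equal depth. Isoforms at least 50 points apart numbered 29, and 412 at 20 counts, 6 at 500 counts, 204 at 25 points and 17 with annotated isoforms only. Where the alternative does not itself change the number of genes or isoforms tested, the cause was not tested.

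No paired analysis was possible because cells of different libraries share a column without a label, and for the same reason leaving out a library was not done. Depth in ganglion cells limits the precision of low genes: Rabgap1l and Prelid2 had there 158 and 167 counts.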

Other observations

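Genes that reached 100 counts in only 1 of the columns extend the comparison. Of the 14 that did so in ganglion cells only, several are known ganglion cell genes. Pou4f3, a transcription factor of ganglion cells, had 127 counts (36.2 CPM) in ganglion cells and 9 counts (0.187 CPM) in amacrine cells. Rbpms, a pan-ganglion RNA-binding protein, had 117 against 33 counts (33.3 and 0.684 CPM), and Slc17a6, the vesicular glutamate transporter, 115 against 81 counts (32.8 and 1.68 CPM). Prph, the intermediate filament peripherin, had 122 against 12 counts, and the transcription factor Irx6 had 156 against 23. Ctxn3, a cortexin, had the most counts of the 14, 682 (194 CPM) against 60 (1.24 CPM). Anxa2, the partner of S100a10, had 170 against 71 counts (48.4 and 1.47 CPM).

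Of the 4595 genes that did so in amacrine cells only, Apoe, a Müller glia marker, had the most counts. It was at 692 CPM in amacrine cells, 8.55 CPM in ganglion cells and 39300 CPM in Müller glia. C1ql2, an extracellular synaptic organiser, was at 420 CPM against 14.2 CPM and at most 1.98 CPM in the other classes. Cabp1, a calcium-binding protein, was at 572 CPM against 27.6 CPM, with 97 ganglion counts. Pax6, a transcription factor of the inner retina, was at 296 CPM against 24.2 CPM. The peptide genes Vip and Tac2 were at 198 and 136 CPM in amacrine cells, on 8 and 27 counts in ganglion cells. Mapt, the microtubule-binding protein tau, was at 124 CPM in amacrine cells and 3.99 CPM in ganglion cells (14 counts).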
